A study of Mus musculus with 9 samples.

Results

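Zinc finger protein (Zfp) genes encode proteins built from repeats of a short fold that holds a zinc ion. In the common C2H2 type, 2 cysteines and 2 histidines bind the zinc, and a row of such fingers reads a DNA or RNA sequence. A large subfamily carries a KRAB box, a short domain that recruits the corepressor Trim28 and, through it, the histone methyltransferase Setdb1 and heterochromatin proteins. KRAB zinc finger proteins are known above all for silencing retroelements and for keeping DNA methylation at imprinted genes. Zfp genes outside the KRAB subfamily have varied roles, among them transcription, RNA decay, translation, ubiquitin transfer and mitosis.

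The members were the protein-coding genes of the deposited mouse testis table whose symbol is Zfp followed by a number and whose mean over the 9 FPKM values (fragments scaled by gene length and library size) was 3 or more. This rule gave 150 genes of 55401 in the table. The table held 367 protein-coding genes named in this way, of which 217 lay below the level. The level that chose the members is a description here and supports nothing else, and the rule used no difference between groups. All 150 members passed the filter on low values (FPKM not under 1 in 3 or more libraries), which 14570 genes passed.

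RNA came from testis of mice of which every group had been given busulfan, a DNA-damaging drug used to empty the testis of germ cells. The BdE group (dEXO+Busulfan) was injected with exosomes from mice whose intestinal microbiota was imbalanced, the BE group (EXO+Busulfan) with blood exosomes of wild-type mice, and the BP group (PBS+Busulfan) with buffer. There was no group without busulfan. Each group held 3 libraries, numbered 5, 6 and 7 in BdE and in BP and 6, 7 and 8 in BE. The labels give no strain or age and do not say whether the libraries of a group came from separate animals, so p-values here reflect only how the libraries spread, which may be technical. The labels give testis as the tissue but write of retinas under extraction. The summed FPKM of 5 Sertoli cell markers was 2504 to 2930 and that of 5 Leydig cell markers 7399 to 10500 over the 9 libraries, and 3 of 5 photoreceptor markers had a mean FPKM under 0.1.

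Total counts ran from 57923652 to 70103125 per library, and a count of 3 corresponded to 0.0428 to 0.0518 CPM (counts scaled to library size). Such floors cover counting error only, whereas the SD and SE given below take in the spread between libraries. The library BE 6 stood apart from the other BE libraries and beside BP. Mitochondrial genes took 11.8% to 13.4% of counts in BdE, 14.5% in BE 7, 14.2% in BE 8, 7.19% in BE 6 and 7.10% to 8.01% in BP. Across the genes tested, the rank correlation of gene length with the expression relative to the mean of all libraries was -0.242 to -0.0868 in BdE, 0.233 in BE 6, -0.191 in BE 7, -0.215 in BE 8 and 0.173 to 0.245 in BP. Among the members alone it was -0.315 to -0.0526 in BdE, 0.158 in BE 6, -0.0703 in BE 7, -0.141 in BE 8 and 0.0637 to 0.195 in BP. Summed levels of cell type markers differed as well. Of the Leydig markers, Insl3 alone had 6994 to 9655 FPKM, and the 4 others, the steroidogenic genes Cyp17a1, Hsd3b1, Star and Cyp11a1, summed to 546, 844 and 525 FPKM in BdE, 1459, 405 and 637 in BE and 1273, 1368 and 1266 in BP, so that BE 6 again stood with BP. The 5 macrophage markers summed to 84.0 to 125 FPKM in BdE, 60.4 to 239 in BE and 226 to 231 in BP, the 4 peritubular myoid markers to 120 to 169 in BdE, 105 to 185 in BE and 202 to 214 in BP, and the 6 spermatid markers to 6.60 to 200 in BdE, 67.6 to 275 in BE and 28.3 to 28.6 in BP. No marker of these lists had a mean FPKM under 0.1. The spermatid sums came mainly from Smcp and Odf1, with a mean FPKM of 72.55 and 28.95. Prm1, Tnp1 and Tnp2 were near the floor, at 0.180, 0.146 and 0.485, and Prm2 averaged 3.83. The part of these shifts in the results on Zfp genes was not tested, and in bulk tissue fewer cells of a type and less RNA per cell cannot be told apart.

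The promoters of 3 members are given because the main comparison turns on these genes. Zfp653 had the largest rise, Zfp445 had the highest level among the KRAB members that rose, and Zfp664 was among the largest falls. Each run is the 250 bases before the RefSeq start on the gene's strand (GRCm38.p6), 5′ to 3′, at chr9:22071377-22071626 on the minus strand for Zfp653, chr9:122866007-122866256 on the minus strand for Zfp445 and chr5:124862455-124862704 on the plus strand for Zfp664. Capitals mark GGGCGG (the GC box) on either strand.
Zfp653: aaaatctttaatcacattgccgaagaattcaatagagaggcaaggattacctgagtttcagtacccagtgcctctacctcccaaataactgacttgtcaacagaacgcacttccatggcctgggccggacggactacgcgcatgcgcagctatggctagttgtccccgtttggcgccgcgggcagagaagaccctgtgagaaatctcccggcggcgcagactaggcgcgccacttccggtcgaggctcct
Zfp445: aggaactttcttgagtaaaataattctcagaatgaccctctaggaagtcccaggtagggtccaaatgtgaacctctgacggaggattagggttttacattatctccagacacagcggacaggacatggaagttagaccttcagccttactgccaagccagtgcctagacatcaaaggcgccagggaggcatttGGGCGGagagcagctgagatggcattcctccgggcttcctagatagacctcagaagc
Zfp664: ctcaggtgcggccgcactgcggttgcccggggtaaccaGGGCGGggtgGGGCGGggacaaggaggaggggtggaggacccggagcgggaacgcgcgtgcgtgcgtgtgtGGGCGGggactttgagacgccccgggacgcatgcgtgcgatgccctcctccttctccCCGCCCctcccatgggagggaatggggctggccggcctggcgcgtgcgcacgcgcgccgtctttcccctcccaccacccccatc
The Zfp664 run held 4 GC boxes, the Zfp445 run 1 and the Zfp653 run 0, and none of the runs held CCAAT or TATAAA on either strand. RefSeq entries were found for 114 of the 150 members, and motifs were counted on both strands over the whole window of 300 bases (250 before and 50 after the start). GGGCGG was present in 57.9% of member promoters and in 35.7% of the 32851 promoters of that table. CCAAT was present in 47.4% of member promoters, in 60.0% of the 45 KRAB ones and in 37.4% of all promoters. TATAAA was present in 4.39% of member promoters and in 13.6% of all. Among the 24 promoters of members that rose in BdE against BP, 12 held GGGCGG and 10 held CCAAT. These matches are a description of letters in a window, with no test.

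The members were expressed at moderate levels. Their mean FPKM had a median of 5.77, with 119 members at 3 to under 10 and 31 at 10 or more. Zfp219, a transcription factor known as a partner of Sox9 in cartilage, had the highest mean FPKM, 35.3, with 39.2 ± 5.18 in BdE, 36.2 ± 5.94 in BE and 30.6 ± 0.734 in BP (SD, n = 3 each). Zfp395 followed with a mean FPKM of 26.2, at 23.7 ± 3.68 in BdE, 23.6 ± 3.60 in BE and 31.4 ± 1.34 in BP. Zfp362 averaged 24.5 FPKM, Zfp275 23.4, Zfp207 22 and Zfp706 19.6. Zfp703, a transcriptional repressor, averaged 17.9 FPKM and Zfp839 17.5. The values of Zfp362, Zfp275 and Zfp207 over the 9 libraries overlapped, so their order is not fixed by these data. At the lower end, Zfp202 (3.02), Zfp160 (3.03) and Zfp383 (3.03) lay just inside the level, and Zfp977 (2.996), Zfp12 (2.99) and Zfp143 (2.91) just outside.

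Translated coding sequences divided the members by structure. A KRAB box pattern was found in 56 members and was not found in 94, and 6 of those without it matched the pattern in part. At least 1 C2H2 finger was found in 145 members, with a median of 11 fingers in the KRAB members and 7 in the others, and up to 36. The 5 members with no such finger were Zfp36, whose fingers are of another type, Zfp185, Zfp330, Zfp703 and Zfp839. KRAB genes were most of the Zfp genes below the level, 158 of the 216 that could be matched. Members lay on 20 chromosomes, with 31 on chromosome 7 and 16 on chromosome 17.

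The members together took a similar share of the RNA in every group. Their counts made up 0.617% to 0.688% of all counts in BdE, 0.623% to 0.672% in BE and 0.625% to 0.635% in BP, and these ranges overlapped. Summed FPKM was 1141 ± 59.0 in BdE, 1118 ± 57.4 in BE and 1079 ± 2.77 in BP (SD, n = 3 each), and the ranges of BdE (1092 to 1206) and BP (1076 to 1082) did not overlap while BE (1067 to 1180) overlapped both. Libraries differed in single members as well. The highest library exceeded the lowest at least 2-fold within BdE for 8 members, within BE for 20 and within BP for 10.

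The comparison of BdE with BP asks what exosomes of mice with disturbed microbiota did to the depleted testis, with buffer as its control. In a fit over the 6 libraries of these groups, 30 members rose and 6 fell, and 19 of the 30 were KRAB genes. The median log2 fold change was 0.13 over the members and 0.01 over all genes tested. The test was edgeR's quasi-likelihood test with Benjamini-Hochberg adjustment over all 14570 genes, at an adjusted p under 0.05. In that fit 9.20% of all genes rose and 11.9% fell, 21.1% in all, and of the members 20% rose and 4% fell, 24.0% in all. Among the 8759 protein-coding genes tested with the same mean FPKM of 3 or more, 11% rose and 14.3% fell. In the fit over all 9 libraries, 0 members passed, where 1 gene of all (0.00686%) did, and 43 members (28.7%) had an unadjusted p under 0.05, 33 of them higher and 10 lower, where 24.1% of all genes had one, 11.9% higher and 12.2% lower. DESeq2 over the 9 libraries called 5 members, where 2.64% of all genes were called, and over the 6 libraries 53, where 30.7% were called. Without BE 6 the edgeR fit over all groups called 37 members, 28 higher and 9 lower, where 22.4% of all genes were called, 10.3% higher and 12.1% lower. The calls of the 6 libraries also rest on single libraries: 13 members were called without BdE 7 (8.67%, where 7.09% of all genes were called), 16 without BP 5 (10.7%, against 8.63% of all genes), 10 without BP 6 (6.67%, against 5.10%) and 13 without BP 7 (8.67%, against 7.05%). Without BdE 5 there were 28 (18.7%, against 17.3%) and without BdE 6 there were 39 (26%, against 21.6%). Each of the 36 members kept its direction in all of these fits. Their BdE and BP libraries do not overlap, so this was all but fixed in advance.

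Each of the 36 members had BdE libraries that did not overlap the BP libraries. By that count alone, without a test, 51 members were higher in every BdE library than in any BP library, 34.0% where all genes gave 21.2%, and 18 were lower, 12% where all genes gave 22.8%.

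**Figure D1:**
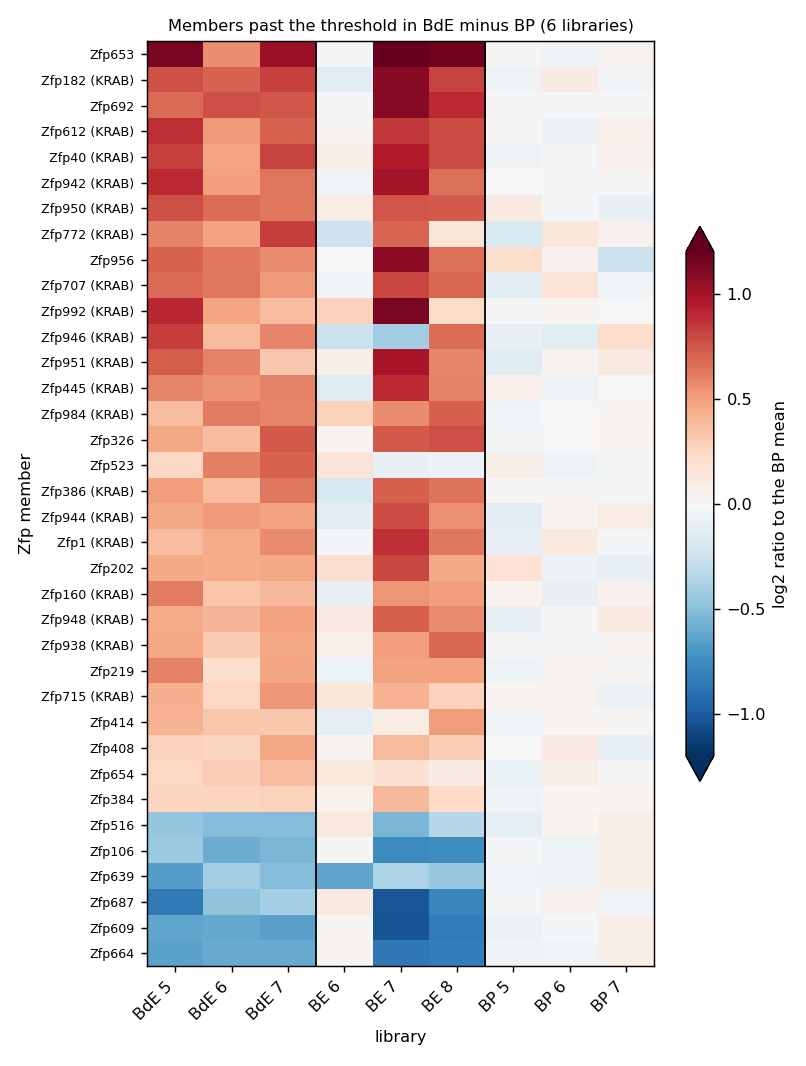
Heat map of the 36 members past the threshold between BdE and BP in the 6-library fit, one row per member from the largest rise (top) to the largest fall (bottom) and one column per library. Colour gives the log2 ratio of CPM to the mean of the BP libraries on a scale cut at its ends, and BE 6 is pale in most rows, Zfp639 being an exception, while BE 7 and BE 8 have the sign of BdE in most rows, with Zfp523 and, in BE 7, Zfp946 as exceptions.

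Zfp653, reported to repress transcription driven by steroidogenic factor 1, showed the largest rise. The gene (ENSMUSG00000038895) spans chr9:22055411-22071376 on the minus strand. It had 78.6, 52.5 and 73.2 CPM in BdE, against 35.7, 34.2 and 36.5 CPM in BP, a log2 fold change of 0.94 with a standard error of 0.155 and an edgeR adjusted p of 0.0138. Its BE libraries had 35.2, 90.6 and 79.8 CPM, so BE 6 lay with BP and the others above every BP library. Of its transcript, 22.3% is shared with another gene at 97% identity or more, and how reads of such stretches were counted is unknown here.

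Zfp182, an X-linked KRAB gene at chrX:21028939-21062316, came next. It had 34.4, 33.1 and 35.8 CPM in BdE, against 19.2, 21.5 and 19.5 CPM in BP (log2 fold change 0.78, SE 0.0868, edgeR adjusted p 0.00687). Zfp692, a repressor of gluconeogenic genes in liver, had 21.3, 22.8 and 22.3 CPM in BdE, against 13.3, 12.9 and 13.3 CPM in BP (log2 fold change 0.75, SE 0.0837, edgeR adjusted p 0.00684). Both genes varied little within either group, and their BE libraries spread from 18.4 to 43.2 CPM for Zfp182 and from 12.9 to 28.5 CPM for Zfp692. The KRAB genes Zfp40, Zfp612 and Zfp942 completed the 6 largest rises. Zfp40 had 30.6, 23.9 and 30.3 CPM in BdE, against 16.6, 17 and 17.8 CPM in BP (log2 fold change 0.72, SE 0.121, edgeR adjusted p 0.0143). Zfp612 had 37.6, 28.9 and 33.3 CPM in BdE, against 20.4, 19.1 and 21 CPM in BP (log2 fold change 0.72, SE 0.118, edgeR adjusted p 0.0136). Zfp942 had 42.5, 31.9 and 35.6 CPM in BdE, against 22.5, 22.3 and 22.8 CPM in BP (log2 fold change 0.70, SE 0.12, edgeR adjusted p 0.0148). In all of them the lowest BdE library was BdE 6 and still above every BP library, apart from Zfp692, where BdE 6 was the highest.

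The 6 members that fell were Zfp609, Zfp664, Zfp687, Zfp639, Zfp106 and Zfp516, none of which has a KRAB box and each of which is longer than the median member. Zfp609, a partner of the cohesin loader Nipbl in the mouse brain, had 74.4, 75.0 and 72.9 CPM in BdE, against 110, 114 and 121 CPM in BP (log2 fold change -0.63, SE 0.0625, edgeR adjusted p 0.00583). Zfp664 had 26.5, 27.2 and 27.3 CPM in BdE, against 40.4, 40.7 and 44.0 CPM in BP (log2 fold change -0.63, SE 0.0744, edgeR adjusted p 0.00768). In both genes BE 7 and BE 8 lay below every BdE library, and BE 6 was at 116 CPM for Zfp609 and 42.7 CPM for Zfp664. Zfp687, which in human cells forms a chromatin complex with the Zfp592 orthologue, had 66.1, 85.2 and 90.1 CPM in BdE, against 118, 124 and 117 CPM in BP (log2 fold change -0.57, SE 0.121, edgeR adjusted p 0.0245). Zfp639 had 28.0, 33.5 and 30.9 CPM in BdE, against 43.6, 43.2 and 47.0 CPM in BP (log2 fold change -0.54, SE 0.0927, edgeR adjusted p 0.0150). Zfp639 was the one fall in which BE 6, at 28.7 CPM, also lay below every BP library. Zfp106, an RNA-binding protein needed by motor neurons, had 158, 143 and 148 CPM in BdE, against 214, 207 and 227 CPM in BP (log2 fold change -0.53, SE 0.0646, edgeR adjusted p 0.00806). Zfp516, an activator of brown fat genes, had 63.7, 61.3 and 61.2 CPM in BdE, against 81.9, 90.4 and 92.9 CPM in BP (log2 fold change -0.51, SE 0.0718, edgeR adjusted p 0.00985). In the fit over 9 libraries the adjusted p of the 12 members named was 0.190, apart from Zfp687 at 0.229.

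**Figure D2:**
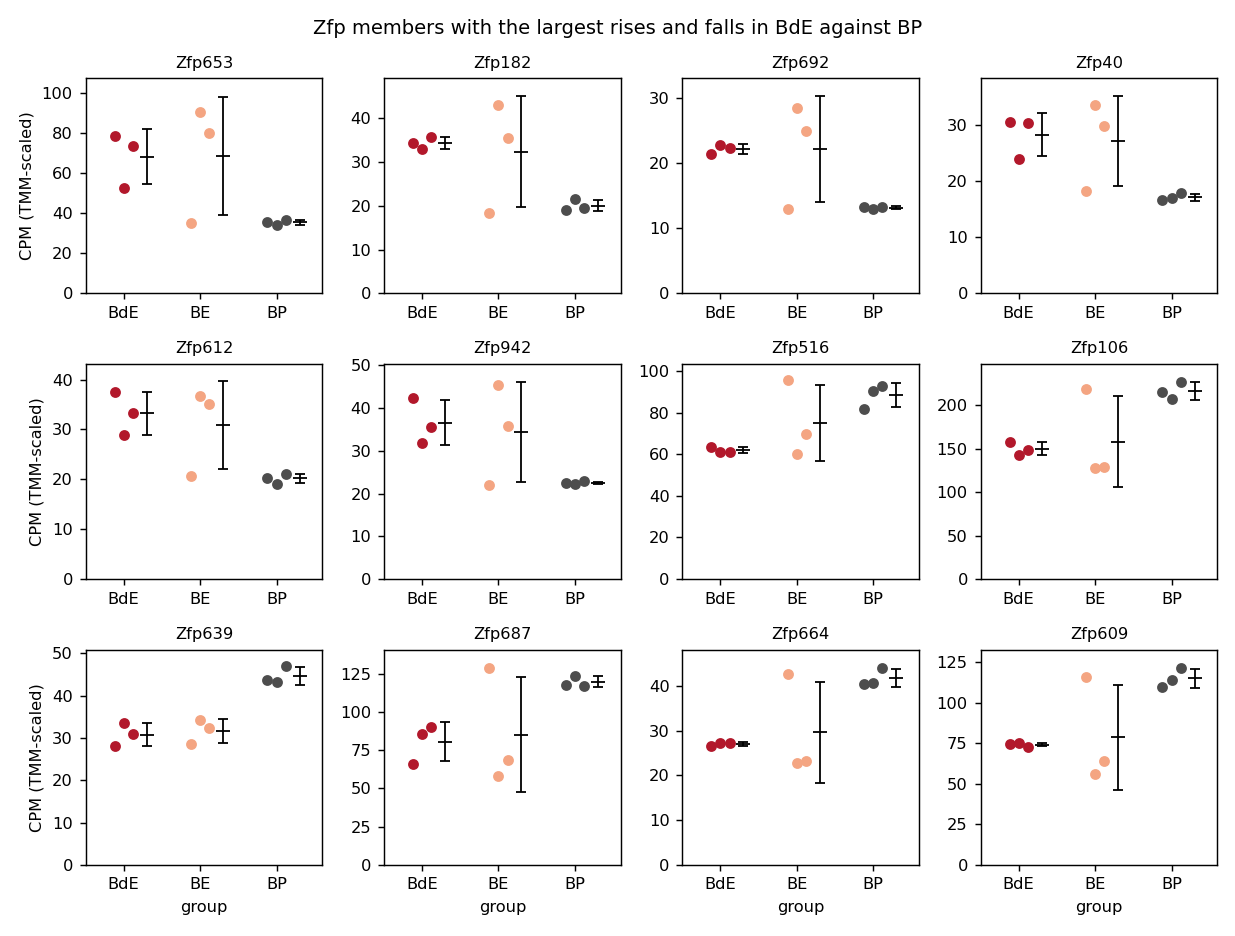
CPM scaled by TMM for the 6 largest rises and the 6 falls between BdE and BP, one panel per gene with its own axis from 0, points for the 3 libraries of BdE, BE and BP, and a bar for the mean and SD. BdE and BP do not overlap in any panel, and the BE points are split in all panels except Zfp639, as for Zfp653 with 35.2 CPM in BE 6 and 90.6 and 79.8 CPM in BE 7 and BE 8.

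The smallest p-values between BdE and BP in the 9-library fit belonged to Zfp639, Zfp523 and Zfp950, all with an edgeR adjusted p of 0.190. Zfp523 had 80.1, 103 and 110 CPM in BdE, against 70.5, 64.8 and 66.8 CPM in BP, a log2 fold change of 0.53 with an SE of 0.130. Zfp950, a KRAB gene, had 50.4, 47.5 and 46.0 CPM in BdE, against 31.9, 29.2 and 27.7 CPM in BP, a log2 fold change of 0.69 with an SE of 0.176. DESeq2 over the same 9 libraries called these genes with Zfp654 and Zfp984.

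KRAB members moved mainly one way. Of 56, 19 rose and 0 fell between BdE and BP, 33.9% of them, where 9.20% of all genes rose and 11.9% fell, and 45 had a positive log2 fold change, with a median of 0.32. Of the 94 members without a KRAB box, 11 rose (11.7%) and 6 fell (6.38%), 55 were positive and the median was 0.07. The 123 named Zfp genes below the level that passed the filter did not show this one-way pattern in the same fit. Of these, not split by KRAB box, 6 rose and 9 fell, 70 were positive and the median was 0.09. By the count of groups that do not overlap, 26 KRAB members were higher (46.4%) and 2 lower (3.57%), where all genes gave 21.2% and 22.8%. Leaving out BdE 7 left 6 KRAB members that rose (10.7%, where 2.10% of all genes rose), and leaving out BP 5 left 5 (8.93%, where 3.0% rose). Leaving out BP 6 left 4 (7.14%, where 1.56% of all genes rose) and BP 7 left 6 (10.7%, where 2.57% of all genes rose), with 0 that fell in each of these fits. Without BdE 5, 14 rose (25.0%, where 6.67% of all genes rose), and without BdE 6, 23 (41.1%, where 8.87% of all genes rose). The KRAB members and the comparison of these sets were chosen with earlier results known, and no test was made of the difference between the sets.

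Gene length, which ran with the libraries as given above, differed between the sets, with a median of 4738 bases in KRAB members, 5734 in the others and 4126 in all genes tested. Among KRAB members up to the median length of all members, 10 of 35 rose, and among the longer ones 9 of 21. Among members without a KRAB box, 6 of 40 rose in the shorter group, and 5 of 54 rose and 6 fell in the longer. Of all genes of any length, 9.20% rose and 11.9% fell. Shares of all genes within these length classes are not given, so the counts cannot be set against other genes of like length. With an offset that removes each library's trend with gene length, 18 KRAB members rose and 0 fell, and over all members 30 rose and 7 fell, where 8.45% of all genes rose and 9.56% fell. With the offset the median log2 fold change was 0.36 for KRAB members, 0.09 for the others and 0.18 for all members, against 0.32, 0.07 and 0.13 without it.

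**Figure D3:**
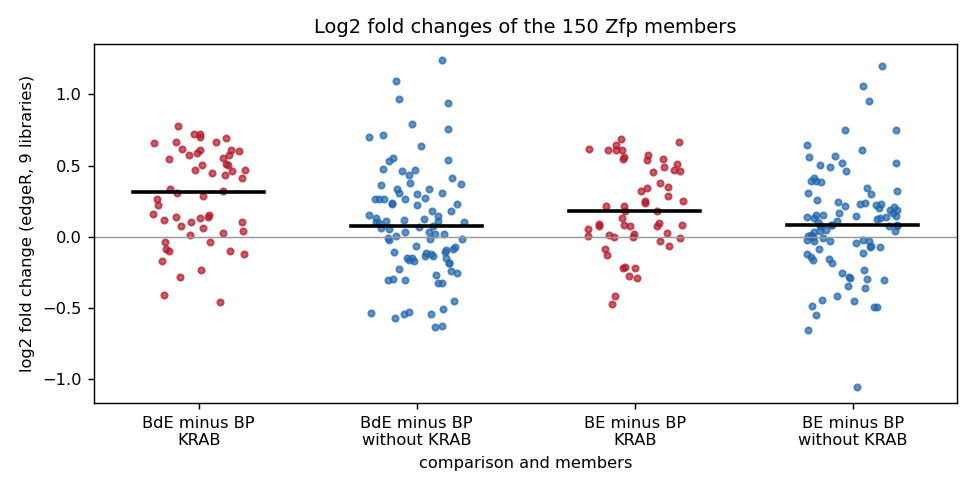
Log2 fold changes of the 150 members in the 9-library edgeR fit for BdE minus BP and BE minus BP, one point per member, split into 56 KRAB members and 94 without a KRAB box, with a line at each median. The median is 0.32 with a KRAB box and 0.07 without for BdE minus BP, and 0.18 with and 0.08 without for BE minus BP, and no KRAB member lies below -0.50 in either.

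**Figure D4:**
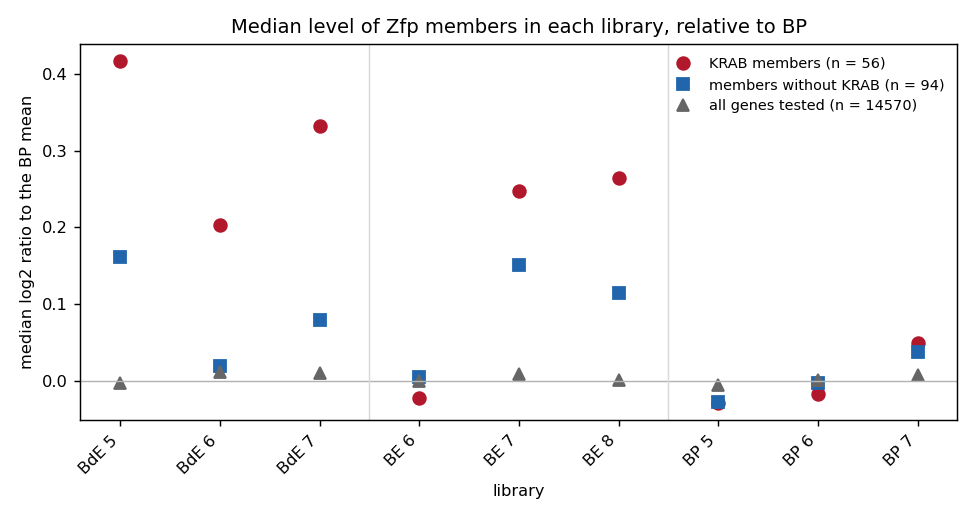
Median log2 ratio to the mean of the BP libraries in each of the 9 libraries, for 56 KRAB members (circles), 94 members without a KRAB box (squares) and 14570 genes tested (triangles). The KRAB medians are 0.20 to 0.42 in BdE and 0.25 and 0.26 in BE 7 and BE 8, and lie between -0.03 and 0.05 in BE 6 and BP.

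Library by library, the KRAB median relative to the BP mean was 0.42, 0.20 and 0.33 (log2) in BdE, -0.02, 0.25 and 0.26 in BE and -0.03, -0.02 and 0.05 in BP. The members without a KRAB box gave 0.16, 0.02 and 0.08 in BdE, 0.01, 0.15 and 0.11 in BE and -0.03, -0.00 and 0.04 in BP. The median over all genes tested lay between -0.01 and 0.01 in every library. Every BdE library thus lay above every BP library in the KRAB median, while BE 7 and BE 8 lay above every BP library and BE 6 among them.

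Many KRAB zinc finger genes sit in clusters of neighbours that arose by duplication. Members within 1 megabase of one another formed the largest run on chromosome 17, from 21008903 to 23599487, with 10 members. Of these, 6 rose between BdE and BP (Zfp40, Zfp160, Zfp942, Zfp944, Zfp946 and Zfp948), 0 fell and the median log2 fold change was 0.45, where 9.20% of all genes rose and 11.9% fell. On chromosome 7, which holds 31 members, 2 rose and the median was 0.22. The other runs of 5 or more members did not show such a rise. The run on chromosome 6 (6 members) had 1 rise, 0 falls and a median of 0.005. The run on chromosome 7 (5 members) had 0 rises, 0 falls and a median of 0.057. The chromosome 17 run was picked out for its number of members, and all these counts stand without a test. Near-identical stretches blur single genes here: 25 members share at least 20% of their transcript with another gene, among which 5 rose and 1 fell, and among the other 125, 25 rose and 5 fell.

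By role, the genes known to silence imprints or retroelements were mostly weakly expressed, and 3 of 7 were members. Zfp445, a KRAB protein that keeps methylation at imprinted loci, had 19.5, 19.1 and 19.1 FPKM in BdE, 12.2, 23.5 and 19.1 FPKM in BE, and 14.5, 13.1 and 13.3 FPKM in BP. Its log2 fold change between BdE and BP was 0.57 with an SE of 0.0556 and an edgeR adjusted p of 0.00575 over 6 libraries, and 0.190 over 9. Zfp445 was thus higher in every BdE library and in BE 7 and BE 8 than in any BP library, and lowest in BE 6. Zfp932, which represses endogenous retroviruses, had 18.1, 12.2 and 14.2 FPKM in BdE, against 12.9, 9.03 and 9.10 FPKM in BP, and did not pass (edgeR adjusted p 0.0760). Of the Zfp932 transcript, 77.8% is shared with Gm15446 in near-identical stretches. How reads of such stretches were counted is unknown here, so these values cannot be assigned to Zfp932 alone. Zfp809, which silences murine leukaemia viruses, had 2.53, 5.61 and 3.20 FPKM in BdE, against 7.88, 5.54 and 3.08 FPKM in BP (edgeR adjusted p 0.452).

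The partners of KRAB proteins were read in the same fit. Of 20 such genes tested, 1 rose and 1 fell between BdE and BP over 6 libraries, where 9.20% of all genes rose and 11.9% fell. A list of this size cannot show whether its share differs from that of all genes. Trim28, the corepressor itself, had 45.1, 39.2 and 40.2 FPKM in BdE, against 45.1, 41.3 and 45.3 FPKM in BP, with a log2 fold change of 0.00 and an SE of 0.0769. Atrx, a chromatin remodeller, rose (log2 fold change 0.48, SE 0.0920, edgeR adjusted p 0.0186), and Cbx5, which encodes heterochromatin protein 1 alpha, fell (log2 fold change -0.36, SE 0.0781, edgeR adjusted p 0.0254).

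Of 7 members that act on RNA, Zfp326, part of a complex that links splicing to transcription, rose with 7.27, 6.89 and 8.55 FPKM in BdE, against 5.5, 5.52 and 5.49 FPKM in BP (log2 fold change 0.54, SE 0.107, edgeR adjusted p 0.0206). Zfp106 was the one that fell. Of all genes 9.20% rose and 11.9% fell in that fit, so calls in lists of 7 or 14 members say little about a role. The list's median log2 fold change was 0.11. Of 14 members among the chromatin and transcription regulators without a KRAB box, Zfp219 (log2 fold change 0.43, SE 0.105, edgeR adjusted p 0.0351) and Zfp384 (0.26, SE 0.0581, edgeR adjusted p 0.0269) rose, and Zfp516, Zfp609 and Zfp687 fell. That list had a median of -0.15, below the median of all members.

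The remaining role lists gave no call, where 21.1% of all genes were called over the 6 libraries. Lists of 3 and 4 members are too small to compare with that share. The 3 members of the ubiquitin, SUMO and mitosis list had 0 rises and 0 falls. Zfp207, which loads the checkpoint protein Bub3 on kinetochores, had 19.8, 21.8 and 20.3 FPKM in BdE, against 25.2, 24.4 and 24.0 FPKM in BP (edgeR adjusted p 0.0698), and Zfp91, a ubiquitin ligase, had 13.1, 11.6 and 11.6 FPKM in BdE, against 13.2, 13.9 and 13.8 FPKM in BP (edgeR adjusted p 0.377). For Zfp207 every BdE library lay below every BP library, whereas in CPM the groups overlapped for Zfp91. Of 7 genes tied to germ cells or the androgen receptor, 4 were members and 0 passed. Zfp35 had 5.69, 5.11 and 4.93 FPKM in BdE, against 5.46, 4.80 and 5.16 FPKM in BP (edgeR adjusted p 0.483), and Zfp628 had 3.21, 3.77 and 3.85 FPKM in BdE, against 5.15, 4.43 and 1.79 FPKM in BP (edgeR adjusted p 0.979).

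The comparison of BE with BP asks the same of exosomes from wild-type mice. It shares its BP libraries with the comparison above. Here 0 members passed in the fit over 9 libraries, where 0.0137% of all genes did, and 31 (20.7%) had an unadjusted p under 0.05, 25 of them higher and 6 lower, where 12.8% of all genes had one. In the fit over the 6 libraries of BE and BP, 0 members and 0 genes of all passed, and 17 members (11.3%) had an unadjusted p under 0.05, where 8.21% of all genes had one. DESeq2 called 1 member, Zfp639, over 9 libraries (0.426% of all genes) and 1 over 6 (0.542% of all genes). The median log2 fold change was 0.10 over the members and 0.18 over the KRAB members. BE 6 decides these counts. Without it, 48 members passed in the edgeR fit, 36 higher and 12 lower, where 29.9% of all genes passed, 13.7% higher and 16.2% lower. Of those, 17 of the higher and 3 of the lower were KRAB members. By groups that do not overlap, 13 members (8.67%) were higher in BE and 8 (5.33%) lower, where all genes gave 7.31% each way.

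The smallest p-values belonged to Zfp639, Zfp984 and Zfp617. Zfp639 had 28.7, 34.2 and 32.3 CPM in BE, against 43.6, 43.2 and 47.0 CPM in BP (log2 fold change -0.49, SE 0.112, edgeR adjusted p 0.379). Zfp984, a KRAB gene, had 16.4, 20.2 and 22.4 CPM in BE, against 13.2, 13.5 and 13.8 CPM in BP (log2 fold change 0.55, SE 0.143, edgeR adjusted p 0.379), and shares 63.3% of its transcript with other genes. Zfp617, also KRAB, had 17.6, 12.6 and 14.6 CPM in BE, against 20.9, 19.8 and 21.5 CPM in BP (log2 fold change -0.47, SE 0.144, edgeR adjusted p 0.379), and shares 44.7%. In each of them all 3 BE libraries lay beyond all BP libraries on one side.

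Read at the members called between BdE and BP, the BE libraries divided. Of the 30 that rose, 28 were above every BP library in BE 7, 29 in BE 8 and 10 in BE 6. Of the 6 that fell, 6 were below every BP library in BE 7, 6 in BE 8 and 1 in BE 6. The median log2 ratio of the 30 to the BP mean was 0.59, 0.47 and 0.57 in BdE, and 0.02, 0.75 and 0.61 in BE 6, BE 7 and BE 8. These members were chosen on the BP libraries, so the values are a description.

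Zfp422 depended on a single library of BP. It had 8.43, 6.78 and 7.57 FPKM in BdE, 6.88, 7.93 and 7.36 FPKM in BE, and 0.752, 0.744 and 8.51 FPKM in BP. The library BP 7 stood at the level of the other groups, while BP 5 and BP 6 lay far below. Its log2 fold change was 1.24 for BdE minus BP and 1.2 for BE minus BP over 9 libraries, and it did not pass. In the edgeR fit over all groups without BP 7, Zfp422 was the single member called in both comparisons. Its log2 fold change there was 3.42 (edgeR adjusted p 0.00193) and 3.38 (edgeR adjusted p 0.00207). Of its transcript, 27.8% is shared with other genes, most of it with Zfp422-ps. Zfp422 was named after its values had been seen.

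The comparison of BdE with BE asks whether the source of the exosomes made a difference. No member passed in the 9-library fit (0 of 150, where 0.00686% of all genes did) or in the 6-library fit (0 of 150 and 0 of all genes), and 3 members (2.0%) had an unadjusted p under 0.05 in each, where 2.33% and 1.43% of all genes had one. DESeq2 also called 0 members over 9 libraries (0.178% of all genes) and over 6 (0.165% of all genes), and limma voom 0 over 9 (0.0824% of all genes). Median log2 fold changes were 0.02 for the members and -0.01 for all genes, and 83 members had a positive one. Zfp523 had the smallest p, with 80.1, 103 and 110 CPM in BdE, against 75.2, 63.5 and 64.3 CPM in BE (log2 fold change 0.53, SE 0.130, edgeR adjusted p 0.999). Zfp13 had 7.52, 8.32 and 7.64 CPM in BdE, against 10.8, 11.6 and 9.17 CPM in BE (log2 fold change -0.43, SE 0.147, edgeR adjusted p 0.999). Zfp451, a SUMO ligase, had 48.8, 43.7 and 47.6 CPM in BdE, against 45.6, 89.1 and 77.4 CPM in BE (log2 fold change -0.60, SE 0.221, edgeR adjusted p 0.999). Zfp523 and Zfp13 did not overlap between the groups, whereas for Zfp451 BE 6 lay within the BdE range. By groups that do not overlap, 2 members were higher in BdE and 3 lower, where all genes gave 2.86% and 2.26%.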

How the data were processed

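RNA-seq of 9 testis libraries was deposited as one gene table. The authors' values were whole-number read counts per gene, without normalization, and FPKM with 0.0001 in place of 0, per the file headers. Bowtie 0.12.2 and mm8 are named in the submitters' processing notes without their roles, while 93.8% of the genes have the start and end of GENCODE M21 (GRCm38), the build used for coordinates. The sources used here do not give the counting program or its use of strand, and 39 members overlap exons of another gene, 30 of them on the opposite strand.

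Counts of genes with FPKM of 1 or more in 3 or more libraries were fitted with edgeR 4.0.16 (quasi-likelihood test, TMM, R 4.3.3), once over 9 libraries and once over the 6 of each pair, with Benjamini-Hochberg adjustment over all genes tested and group as the one term. Fits were tested on simulated data with less spread between libraries than these data and with no library set apart. That check does not show how the fits behave on these libraries. Alternatives used DESeq2 1.42.0, limma 3.58.1 (voom), other normalizations and filters, a gene length offset, a replicate block, other levels of the member rule and each library left out. CPM are TMM-scaled. KRAB boxes (at least 10 of 13 fixed residues) and fingers were read from translated GENCODE transcripts, where RefSeq proteins had been planned, and shared stretches (97% identity over 100 bases) came from BLAST 2.17.0.

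Named members were the 6 largest rises and falls among calls without overlap between groups, the 3 smallest p-values of each comparison, the 8 highest levels, the 3 on each side of the level rule and those picked by rule from each role list. Members and lists were chosen with earlier results of these data known.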

Additional observations from a re-analysis of the deposited data

How the results depend on the processing

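Counts of members past the threshold depended on the libraries in the fit. For BE minus BP, 0 members were called over 9 libraries, and 0 to 48 with 1 library left out, 1 with DESeq2 and 61 with limma voom and sample weights (35.9% of all genes). Over its 6 libraries, 0 were called, and 0 to 49 with 1 left out and 1 with DESeq2. The 48 of the fit over all groups were 32.0% of the members, where 29.9% of all genes were called. No share of all genes is given here for the 49, so that count is no result about the members. For BdE minus BP, 0 were called over 9 libraries, and 0 to 37 with 1 left out, 5 with DESeq2, 57 with voom (34.6% of all genes) and 36 over its 6 libraries. Those 36 became 10 to 39 with 1 library left out, and 53 with DESeq2 (36 of the 36 among them) and 37 with the gene length offset (35 among them). In the 9-library fits and in the fit of BE and BP, the largest count with 1 library left out was that without BE 6. For BdE minus BE, 0 were called in every edgeR fit listed here and with DESeq2 and voom. The cause of these differences was not tested. Whether replicate numbers pair the samples is not settled here. Deviations of same-numbered libraries correlated at -0.0973 to 0.210, the highest being BdE 6 with BE 6, and not every library correlated best with its own number. With 3 libraries a group, such values cannot exclude pairing. With the replicate block 0 of the 36, KRAB members included, and 0 of all genes were called. Medians of the members ranged from 0.07 to 0.17 for BE minus BP, 0.10 to 0.20 for BdE minus BP and -0.03 to 0.08 for BdE minus BE over the alternatives. The members named for the largest changes or smallest p-values kept their sign in all 340 values refitted for them (20 gene and comparison pairs under 17 alternatives), and 52 of these values passed the threshold where the 9-library value had not. The kept signs are no support, since these members were picked for their changes and, apart from Zfp451, their groups do not overlap. With 3 libraries a group, members near the threshold are not settled by these data.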

Other observations

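A few Zfp genes had single libraries many times below the rest of their group, a pattern picked out after the values were seen. Zfp46 had 14.1, 12.5 and 13.1 FPKM in BdE, 12.8, 13.7 and 0.742 FPKM in BE, and 11.4, 13.6 and 12.7 FPKM in BP. Its low value in BE 8 gave the widest range within a group, 18.2-fold in CPM. Zfp346, which binds double-stranded RNA, had 2.57, 12.5 and 8.32 FPKM in BdE, 12.6, 1.89 and 2.43 FPKM in BE, and 12.5, 11.4 and 12 FPKM in BP. Its BE 6 value lay with BP and its low libraries were in BdE and BE, with a log2 fold change of -0.55 for BdE minus BP and -1.06 for BE minus BP in the 9-library edgeR fit, neither of which passed (adjusted p 0.645 and 0.452). Zfp12, just below the level that chose the members, had 3.29, 0.848 and 3.11 FPKM in BdE, 4.17, 3.54 and 3.22 FPKM in BE, and 3.73, 0.932 and 4.10 FPKM in BP, with library 6 low in BdE and in BP and not in BE.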
